A study of Mus musculus with 6 samples.

Results

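The matrix metalloproteinases, the cathepsins and Timp1 are the genes for matrix-degrading proteases and their inhibitor on a mouse wound healing PCR array. They were taken by symbol, as every gene whose name begins with Mmp or Cts together with Timp1, which gave 8 of the 84 wound healing genes: 4 metalloproteinases (Mmp1a, Mmp2, Mmp7 and Mmp9), 3 cathepsins (Ctsg, Ctsk and Ctsl) and 1 inhibitor. Primary dermal fibroblasts of neonatal C57BL/6 mice, at passages 3 to 5, were grown to a monolayer and scratched. Control cultures then received plain DMEM, and DS cultures received DMEM with 2,4-DS, a dermatan sulfate purified from the ascidian Styela plicata, at 50 µg/mL. Mitomycin C, which blocks cell division, was present in both groups. The labels name a series of DS concentrations between 10 and 1000 µg/mL and tie none of them to a sample, so the dose is that of the study's methods. Treatment for 24 h and incubation for 72 h both stand in the labels, and the methods give a further duration, so the time of sampling is not settled. There were 3 control and 3 DS cultures, described as biological triplicates, and each was run on its own array of 96 wells. Each well yields a CT, the PCR cycle at which its fluorescence rises past a set threshold. The more template a well holds, the earlier its CT, with 1 cycle worth a 2-fold difference at full efficiency. A CT over 36, the cutoff of the methods, was read as not detected.

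Metalloproteinases are zinc-dependent enzymes that are secreted as inactive proenzymes and cut the proteins of the extracellular matrix. Collagenases open the triple helix of fibrillar collagen, gelatinases degrade the unwound chains and basement membrane collagen, and Timp1 binds the active enzymes and blocks them. Cathepsins K and L are cysteine proteases of the lysosome, while cathepsin G is a serine protease best known from the granules of neutrophils. In a skin wound, these enzymes loosen the matrix for migrating cells and later remodel the new tissue.

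Promoter sequences from RefSeq (GRCm38.p6) were at hand for 6 of the 8 genes, Mmp2 and Mmp9 being the others. They are shown for the collagenase gene, for a neighbour of it on the same chromosome, and for the cathepsin that was measured in every array. Mmp1a lies on chromosome 9 from 7464141 to 7476869 and Mmp7 on the same chromosome from 7692090 to 7699585, with their starts 228 kb apart. Ctsk lies on chromosome 3 from 95499210 to 95509387. Each sequence gives the 250 bases before the start of the gene on the plus strand, chr9:7463891-7464140 for Mmp1a, chr9:7691840-7692089 for Mmp7 and chr3:95498960-95499209 for Ctsk. Capitals mark matches to TGANTCA, the letters of the AP-1 motif, searched on both strands.
Mmp1a: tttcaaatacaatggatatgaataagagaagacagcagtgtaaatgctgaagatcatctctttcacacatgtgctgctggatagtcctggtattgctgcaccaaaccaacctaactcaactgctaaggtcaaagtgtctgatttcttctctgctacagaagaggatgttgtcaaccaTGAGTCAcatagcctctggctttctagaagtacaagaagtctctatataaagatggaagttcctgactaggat
Mmp7: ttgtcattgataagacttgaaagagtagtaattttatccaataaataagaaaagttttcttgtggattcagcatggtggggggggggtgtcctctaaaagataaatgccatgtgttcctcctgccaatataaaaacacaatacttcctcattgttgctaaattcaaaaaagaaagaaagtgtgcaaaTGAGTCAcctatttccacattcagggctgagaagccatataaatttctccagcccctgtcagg
Ctsk: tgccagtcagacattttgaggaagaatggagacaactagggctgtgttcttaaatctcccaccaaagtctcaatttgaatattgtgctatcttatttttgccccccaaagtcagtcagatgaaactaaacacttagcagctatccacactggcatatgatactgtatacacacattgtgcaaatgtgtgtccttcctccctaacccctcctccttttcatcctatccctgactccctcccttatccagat
The AP-1 letters began 73 bases before the start of Mmp1a and 63 bases before the start of Mmp7, and no match was found in the windows of the other 4 genes. Of all 32851 promoters in the table, 6.75% held a match in the same window. The letters TATAAA, present in 12.4% of all promoters on either strand, began 28 bases before the start of Mmp1a and 26 bases before that of Mmp7, which held them again at 123 bases. Of the other 4 genes, Ctsg alone held them, on the minus strand and 237 bases before its start. The letters AGGAAG, a form of Ets site (29.5% of all promoters, either strand), occurred in the windows of Ctsg, Ctsk, Mmp7 and Timp1. They were not found in those of Mmp1a and Ctsl, but the shorter Ets core GGAA was not searched for. The window of Ctsl ends at a start 252 bases inside the annotated gene. Mmp7 had 2 promoter entries. The one shown ends where the annotated gene starts, and matches in the other are not given here.

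Several wells of the arrays differed between the groups in ways that bear on every value here. The housekeeping gene Actb gave no CT in the 3 control arrays and came up at 12.2 ± 0.768 (SD, n = 3) on the DS side, while Gapdh gave none in any of the 6 arrays. The fibroblast markers Col1a1, Col1a2 and Col3a1 were not detected in any control array, which goes against the label of these cultures, and all 3 were detected in each DS array. Relative to the normalizing genes Hsp90ab1, Ccl7 and Egfr, their summed quantity was 154, 214 and 244 in DS replicates 1, 2 and 3, and Col1a2 had the earliest CT of the 3. Such sums run over different assays, in which the earliest CT weighs most, and give no order of abundance. The positive PCR control wells gave no CT in any array. The genomic DNA control gave none in the control arrays and came up at 33.1, 34.0 and 33.8 in DS replicates 1, 2 and 3. In each control array 25 or 26 of the 89 gene assays were detected, against 58 to 60 in each DS array. No CT value was shared between the same wells of any 2 arrays. The reverse transcription control in well H08 came up at 22.5 ± 0.699 (SD, n = 3) in control and only over the cutoff in DS, while those in wells H07 and H09 were detected in DS alone. Each value is assigned to its gene by the deposited well, and whether the wells of the control arrays hold the assays listed for them was not tested, so every control value here rests on that layout.

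Markers of other cell types were read in the same way. Of 4 lymphocyte markers, 2 were detected in each array, and their summed relative quantity was 2.09, 1.26 and 2.40 in control and 151, 628 and 180 in DS, with Ifng at the earliest CT in every array. The other detected marker was Il4 in control, which gave no CT in DS, and Cd40lg in DS, which gave none in control, and Il2 gave no CT. Of 3 macrophage markers only Il1b was detected, in DS alone, at 16.6, 39.2 and 41.6, while Tnf and Il10 gave no CT. Of 3 liver-type markers, Vtn alone was detected in control, with sums of 49.6, 85.6 and 72.3, and Fga and Plg in DS, with sums of 0.467, 0.287 and 0.715. Of the smooth muscle markers, Tagln was detected in DS only, at 75600, 321000 and 209000, and Acta2 gave no CT. The epithelial marker Cdh1 and the striated muscle marker Actc1 gave a CT only over the cutoff. The part of these markers, of the housekeeping genes and of genomic DNA in the protease results was not tested. Since each array holds RNA from a whole culture, a change in the number of cells of a type and a change in RNA per cell cannot be told apart.

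Mmp1a, an interstitial collagenase of the mouse, was the only one of the 8 genes to be detected in control and lost in DS. Its CT was 22.4, 24.0 and 23.5 in control replicates 1, 2 and 3, and no DS array gave a CT. The groups thus did not overlap, and each control array lay at least 11.99 cycles before the cutoff. The log2 fold change of DS over control, relative to the normalizing genes, was −12.69 as a bound against the cutoff (standard error 0.44, limma adjusted p = 1.17e-08), which is at least 6623-fold lower. The standard error and p of such a bound take the cutoff as if it were measured. Leaving out any one array gave values from −13.02 to −12.21. As 7 of the 64 tested genes, Mmp1a among them, have only such a bound on their decrease, its place among the genes that fell is not known.

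**Figure D1:**
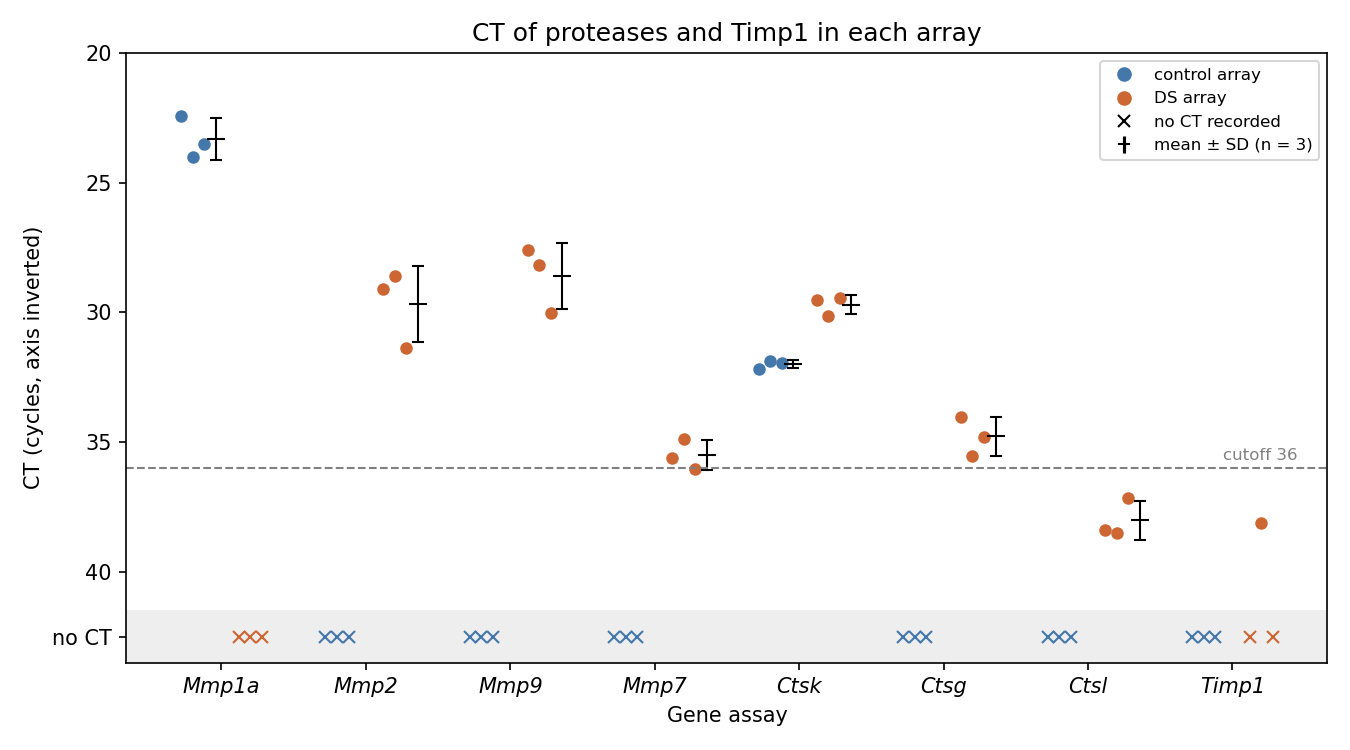
CT of each of the 8 genes in the 3 control and 3 DS arrays, with later cycles (less template) lower on the axis, the cutoff of 36 as a line, and wells without a CT set apart. Mmp1a was detected in control only, Ctsk in both groups, Mmp2, Mmp9 and Ctsg in all 3 DS arrays only, and Ctsl and Timp1 only over the cutoff.

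The gelatinases went the other way. Mmp2, gelatinase A, is encoded on chromosome 8 from 92827290 to 92853421, and its CT was 29.1, 28.6 and 31.4 in DS replicates 1, 2 and 3. Mmp9, gelatinase B, is encoded on chromosome 2 from 164940326 to 164955850, and its CT was 27.6, 28.2 and 30.0 in the same arrays. Neither gave a CT in any control array, so for both genes every DS array was higher than every control array. The rise was at least 6.30 on the log2 scale for Mmp2, or 78.8-fold (standard error 0.66, limma adjusted p = 1.83e-05). For Mmp9 it was at least 7.41, or 169.7-fold (standard error 0.58, limma adjusted p = 2.64e-06). Within each DS array Mmp9 came up before Mmp2, but CT values of different assays are not levels per transcript and set no order of abundance.

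Both gelatinases were lowest in DS replicate 3. After normalization, that array deviated from the DS mean by −1.66 log2 units for Mmp2 and −1.42 for Mmp9. This was not shared by the array as a whole: of the 55 genes detected in all 3 DS arrays, 18 were lowest in replicate 3, 22 in replicate 1 and 15 in replicate 2. Only 2 of the 55, Mmp2 and Rac1, lay further below their own mean in replicate 3 than Mmp9 did. Without that array the bounds were 7.13 for Mmp2 and 8.12 for Mmp9.

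Mmp7, matrilysin, the smallest of the 4 enzymes and a product mainly of epithelia, lay at the edge of detection. It gave no CT in control and CT values of 35.6, 34.9 and 36.02 in DS, the last of them just over the cutoff. With 2 of 3 DS arrays under the cutoff, the groups overlapped. The log2 fold change of 0.49, computed against the cutoff in control (standard error 0.36, limma adjusted p = 0.215) was not past 0.05. The gene was called when the cutoff was moved to 40, where the value was at least 4.48 (limma adjusted p = 5.67e-06). Over its alternatives the adjusted p ran from 1.61e-08 to 0.896, the lowest with Actb and Gapdh as normalizing genes, where the value was negative (−11.40).

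Ctsk, cathepsin K, a collagen-degrading enzyme best known from osteoclasts, was the only one of the 8 genes measured in all 6 arrays. Its CT was 32.2, 31.9 and 31.9 in control replicates 1, 2 and 3 and 29.5, 30.1 and 29.4 in DS replicates 1, 2 and 3. Every DS array was thus earlier than every control array, while control arrays had an SD of 0.151 cycles (n = 3) and DS arrays one of 0.375 (n = 3). The log2 fold change was 2.29, or 4.89-fold (standard error 0.31, limma adjusted p = 0.000115). It is a measured value and not a bound, but its sign rests on the normalizing genes. With the 5 housekeeping genes the value was −5.33 (limma adjusted p = 8.31e-07). With Actb and Gapdh it was −9.60 (limma adjusted p = 9.50e-08). Of these housekeeping genes only Hsp90ab1 was detected in control arrays, so both values rest on wells set to the cutoff.

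Ctsg, on chromosome 14 from 56099885 to 56102574, gave a late signal in DS only. No control array gave a CT, and the DS arrays gave 34.0, 35.5 and 34.8. The groups did not overlap, and the rise was at least 1.21 on the log2 scale, or 2.31-fold (standard error 0.40, limma adjusted p = 0.0194). Moving the cutoff to 35 ended this call (0.38, limma adjusted p = 0.279). Elsewhere among its alternatives the adjusted p ran from 3.40e-07 to 0.125, the lowest with Actb and Gapdh as normalizing genes, where the value was negative (−10.68). The call was also lost when control replicate 1, 2 or 3 was left out, with adjusted p of 0.0533, 0.0554 and 0.0622 in limma.

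Ctsl, cathepsin L, on chromosome 13 from 64361890 to 64370772, gave no CT in control and CT values of 38.4, 38.5 and 37.2 in DS. All lay over the cutoff, so the gene was not tested and no fold change was computed. With a cutoff of 40 its log2 fold change was at least 1.97 (standard error 0.40, limma adjusted p = 0.00209). Those CT values lay later than that of the genomic DNA control, but this is another assay, so no order of template follows. Timp1, the inhibitor, on chromosome X from 20870166 to 20874737, gave a CT of 38.1 in DS replicate 2 and none in the other 5 arrays. A difference in Timp1 was therefore not detectable with these arrays, nor can the balance between the proteases and their inhibitor be read from them.

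Of the 8 genes, 6 were tested, 4 were called higher in DS (Mmp2, Mmp9, Ctsk and Ctsg) and 1, Mmp1a, was called lower, with limma's adjusted p at or under 0.05. Over all 64 tested genes 71.9% were called higher and 20.3% lower, so neither count stands apart from the array as a whole. By complete separation of the groups the members' counts were the same, beside 73.4% and 20.3% of all tested genes. Genes entered the test by being detected in at least 1 array, so for a gene found in 1 group only the direction followed from detection. Some such genes, Mmp7 and Plau among them, were nonetheless not called. The counts are no support for a change of the family. The median log2 fold change was 1.75 over the 6 tested genes, bounds included, and 4.40 over all tested genes. Of the 64 values 39 were computed against the cutoff in control and 7 against it in DS. Those of all 6 tested proteases other than Ctsk are among them, so the order of the values is not an order of the changes. For Mmp7 DS replicate 3 was set to the cutoff too, so its value is no strict bound.

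**Figure D2:**
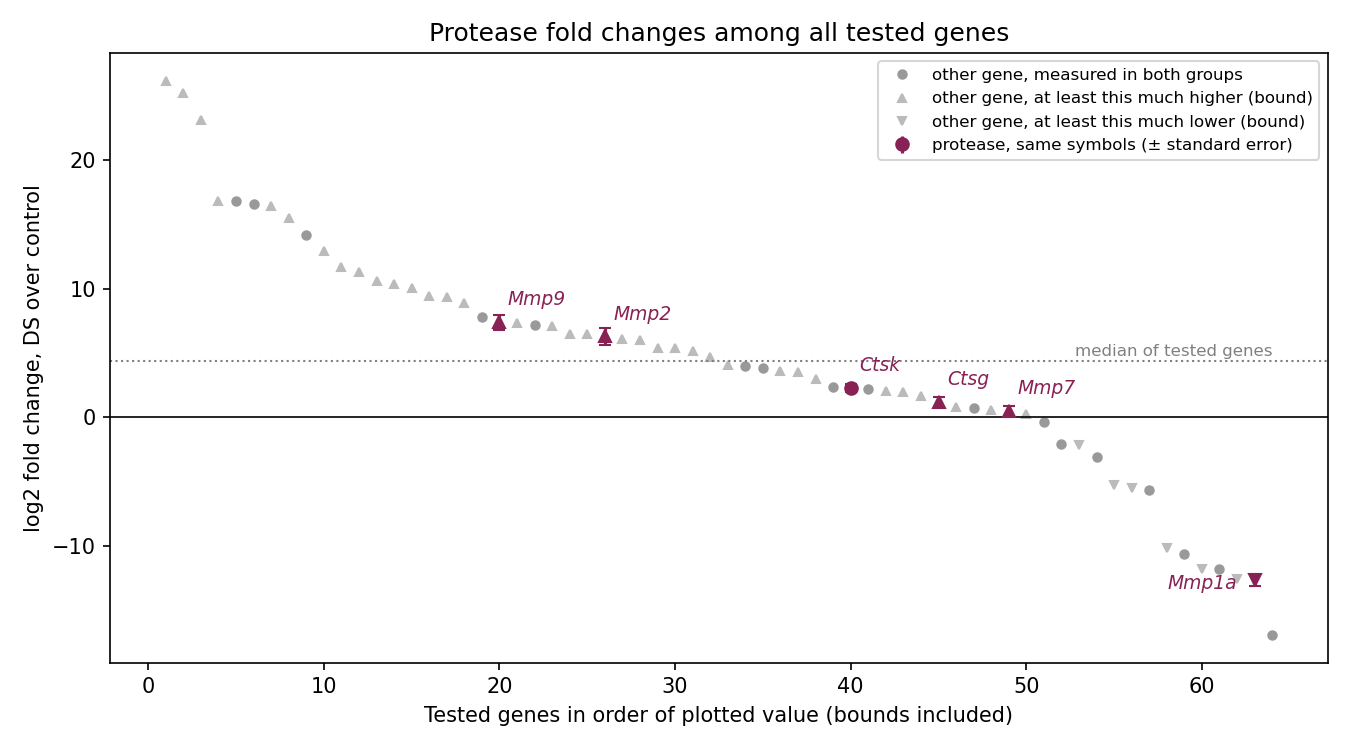
Log2 fold change of DS over control for the 64 tested genes, with the methods' normalizing genes, in order of the plotted value, with the 6 tested proteases named and drawn with standard errors. Triangles are values against the cutoff, whose order does not give that of the changes, and circles were measured in both groups. They are bounds, though that of Mmp7 is not a strict one. The dotted line is the median of 4.40. Mmp2 and Mmp9 are plotted above it and Ctsk, Ctsg, Mmp7 and Mmp1a below.

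The difference between 2 genes of the same array needs no normalizing gene. With 6 genes there were 15 such pairs, and in 7 of them the order of the changes is settled although some values are bounds. In 5 of the 7 the partner is Mmp1a. Relative to Mmp1a, the change from control to DS was at least 20.10 log2 units for Mmp9 (standard error 0.87), 18.99 for Mmp2 (0.97) and 14.98 for Ctsk (0.59). For Ctsg it was at least 13.90 (standard error 0.63). For Mmp7 the value was 13.18 (0.57), with Mmp7 itself set to the cutoff in DS replicate 3. Relative to Ctsk, the change was at least 5.12 for Mmp9 (standard error 0.85) and 4.01 for Mmp2 (1.02). Without DS replicate 3 the log2 fold changes were 8.115 for Mmp9, 7.13 for Mmp2 and 2.155 for Ctsk, so both limits depend on that array and are larger without it. In the two-sided exact permutation test 14 of the 15 pairs gave the smallest p, 0.1, or 0.107 after Benjamini-Hochberg adjustment over the 15, so the p does not set the 7 apart from the other 8. Mmp2, Mmp9, Ctsg and Mmp7 were not detected in control, and Mmp1a was not detected in DS. For Mmp1a against any of them, complete separation thus follows from detection alone. In the other 8 pairs the bounds leave the order of the changes unsettled.

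Set against the genomic DNA control of the same array, the detected genes fell on both sides. CT values of different assays are not levels, so this order ranks no amounts of template. The part of genomic DNA in each signal was not tested. In DS, Mmp9 came up 5.04 ± 1.12 cycles before that control, Mmp2 3.94 ± 1.5 cycles before and Ctsk 3.93 ± 0.396 cycles before it (SD, n = 3), each in 3 of 3 arrays. Ctsg, Mmp7 and Ctsl came up after it in all 3 arrays, with mean differences of −1.16, −1.88 and −4.39 cycles, as did the CT of Timp1 in DS replicate 2, at −4.10. Of the 61 wound healing genes that gave any CT in all 3 DS arrays, 11 came up after that control throughout, Ctsg, Mmp7 and Ctsl among them. With the cutoff moved to 33.1, the earliest CT of the control, the rise of Mmp2 was at least 3.38 (limma adjusted p = 0.00102). That of Mmp9 was at least 4.49 (limma adjusted p = 8.07e-05). Both were called, beside 69.1% of tested genes called higher and 21.8% lower. Neither has a CT in control, and both came up before 33.1 in every DS array. These calls thus followed from detection and are no test of genomic DNA. Ctsg and Mmp7 could not be tested at that cutoff. In control arrays, where Mmp1a and Ctsk were detected, the genomic DNA control gave no CT.

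**Figure D3:**
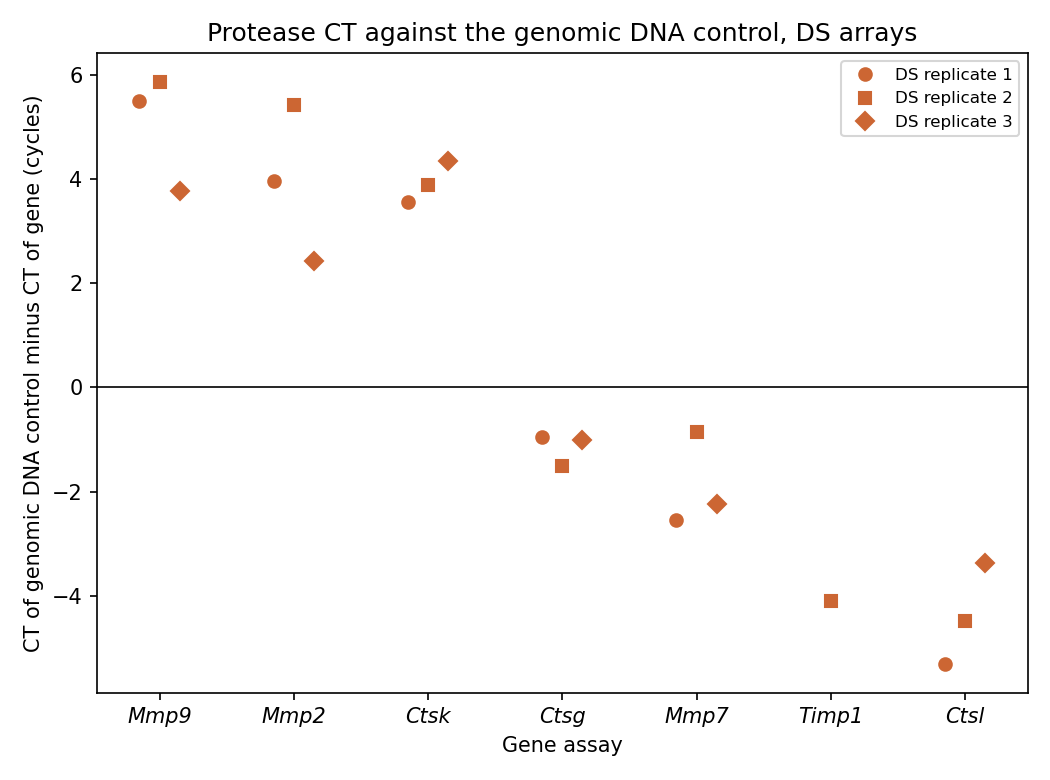
CT of the genomic DNA control minus the CT of each gene in the 3 DS arrays, in cycles, where points above 0 came up before the control. Mmp9, Mmp2 and Ctsk lie above 0 in every DS array, and Ctsg, Mmp7, Ctsl and Timp1 lie below it in every array that gave a CT. The assays differ, so this order is not one of template.

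Another choice of normalizing genes moves all genes of an array by the same amount, so the differences between proteases stay as they are. The sign of a fold change can turn with that shift, as it did for every tested protease other than Mmp1a. Hsp90ab1 differed by 0.35 cycles between DS and control, Ccl7 by 0.317 and Egfr by −0.697, with adjusted p of 0.427, 0.427 and 0.131 (limma). For Egfr every DS array was nonetheless earlier than every control array, which gave the smallest exact permutation p of 0.1. The methods' test, as rerun here, called Egfr higher in DS. With the 5 housekeeping genes of the array in their place, 0 proteases were called higher and 4 lower, beside 26.6% and 60.9% of all tested genes. The 4 were Ctsk (−5.33), Ctsg (−6.42), Mmp7 (−7.13) and Mmp1a. Mmp2 (−1.32, adjusted p = 0.132) and Mmp9 (−0.22, adjusted p = 0.767) were not called by limma. With Actb and Gapdh all 6 were called lower, among them Mmp9 at −4.48 and Mmp2 at −5.59, beside 15.6% of all tested genes called higher and 81.2% lower. Of the 5 housekeeping genes only Hsp90ab1 was detected in control arrays. Actb and B2m were set to the cutoff there, against mean CT of 12.2 and 21.3 in DS. Gapdh and Gusb were set to it in all 6 arrays. The values of both sets thus rest on wells without a detected CT and are not bounds. The share of called array genes that were higher in DS was 78.0% with the methods' genes, 30.4% with the 5 housekeeping genes, 16.1% with Actb and Gapdh, and 83.9% with each array's median CT over the genes measured in all 6. The median over all tested genes moved alike, from 4.40 to −3.23, −7.49 and 7.35. With that median CT as the reference Mmp7 was called higher too (3.44, limma adjusted p = 4.53e-05). Mmp1a was below 0 in each of its 22 alternatives, from −24.58 to −9.74. As it was detected in control only, no change of cutoff, filter or test and no left-out array could turn its direction. Only a shift of the normalizing genes could. The test that the methods describe, rerun here on each gene alone and unadjusted, called 56.2% of the tested genes higher and 14.1% lower. Of the proteases it called Ctsk alone, as higher, and not Mmp1a, Mmp2, Mmp9, Ctsg or Mmp7. The rerun used the arithmetic mean of the normalizing CT, and its calls are not those that the study reported.

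**Figure D4:**
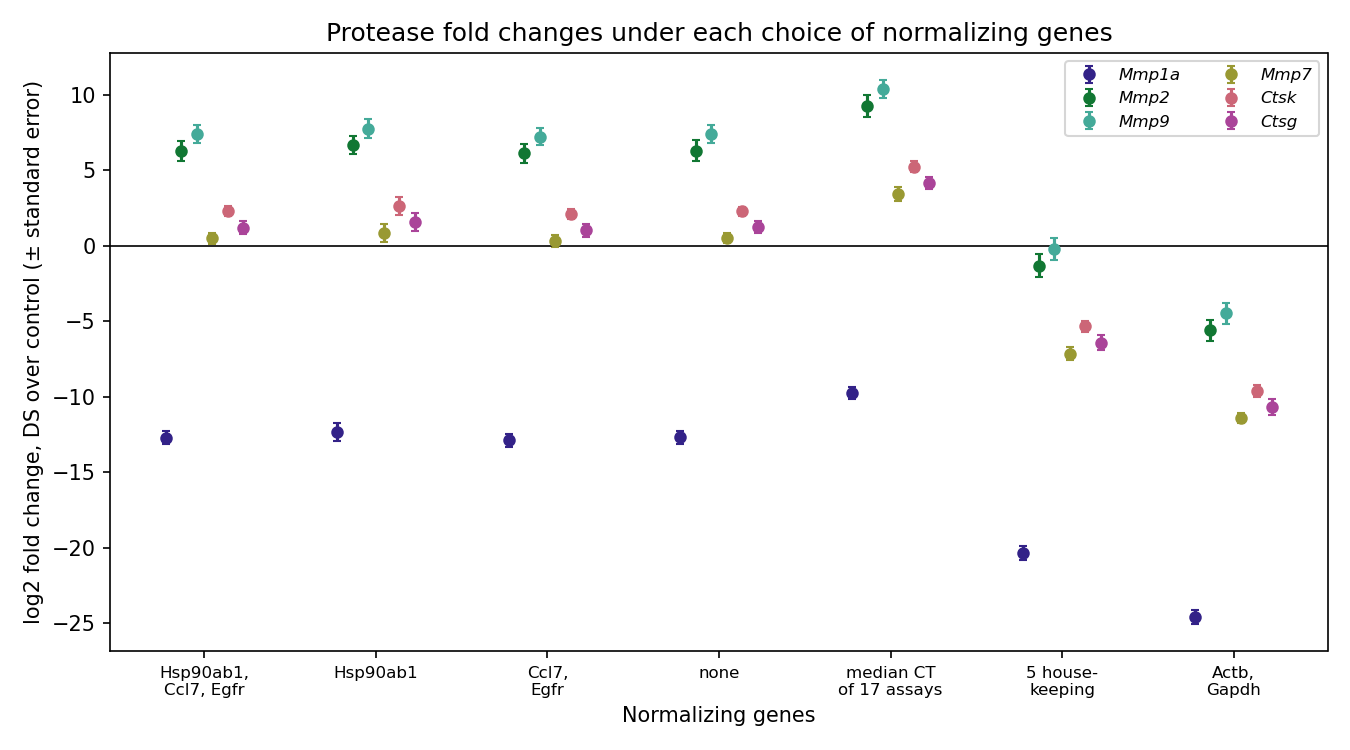
Log2 fold change of DS over control for the 6 tested proteases under each choice of normalizing genes. Mmp1a stays below 0 throughout, while the other 5 lie above 0 with the methods' genes and below 0 with the 5 housekeeping genes or with Actb and Gapdh.

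The genes around the proteases were counted by list, with the methods' normalizing genes. The counts stand beside 71.9% of all tested genes called higher and 20.3% lower, and none is read as particular to its list. The plasminogen system supplies plasmin, which activates several metalloproteinase proenzymes. Of its 5 genes 4 were tested and 3 were called higher in DS, with a median of 2.63: Plaur, the urokinase receptor (at least 8.90), Plg, plasminogen (at least 3.63), and Plat, the tissue activator (at least 1.63). Plau, urokinase, was at 0.29 (limma adjusted p = 0.358). Of 10 matrix substrates 9 were tested, and 7 were called higher and 2 lower, with a median of 2.17. The fibrillar collagen genes Col1a1, Col1a2 and Col3a1, whose products collagenases cut, were higher by at least 11.31, 12.93 and 6.09. Of the basement membrane collagen IV genes, Col4a1 was higher (2.39) and Col4a3 lower (−10.61). Vtn, vitronectin, was lower too (−11.79, a bound).

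Of 8 genes for signals known to raise metalloproteinase transcription, 7 were tested, and 6 were called higher and 1 lower, with a median of 7.82. Il1b was higher by at least 10.61, Tgfa by at least 7.34, Hbegf by at least 5.42 and Fgf2 by 7.82, while Egf was lower (−5.66), and Tnf gave no CT. Of 4 cytokines known to lower it, 2 were tested: Ifng was called higher (7.19) and Il4 lower (−2.13, a bound), and Tgfb1 and Il10 were not detected. All of these medians, like that of the proteases, stand beside 4.40 for all tested genes. With Actb and Gapdh as normalizing genes the counts turned to 0 higher and 4 lower for the plasminogen system, 1 and 7 for the substrates, 2 and 5 for the raising signals, and 0 and 2 for the lowering cytokines, beside 15.6% higher and 81.2% lower over all tested genes.

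**Figure D5:**
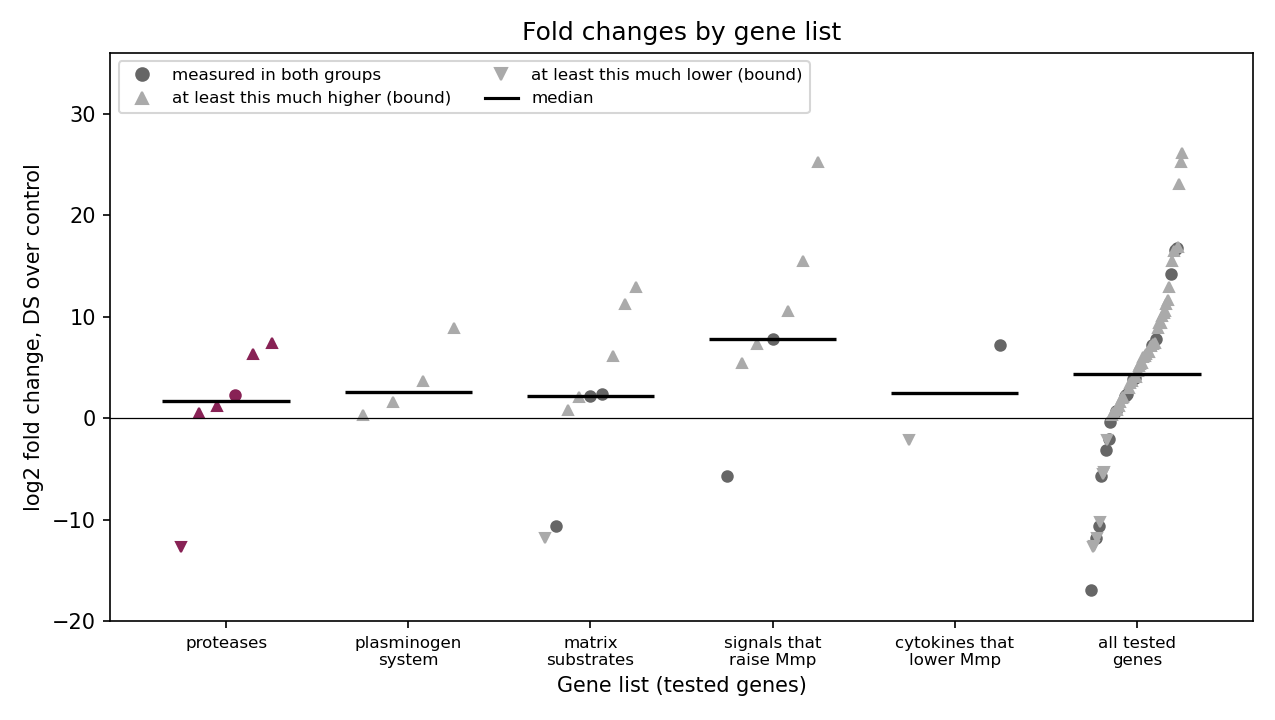
Log2 fold change of DS over control by gene list, with a point per tested gene, triangles for values against the cutoff and a line at each median. The medians are 1.75 for the proteases, 2.63 for the plasminogen system, 2.17 for matrix substrates, 7.82 for raising signals, 2.53 for lowering cytokines and 4.40 for all tested genes, all with the methods' normalizing genes; with Actb and Gapdh all 6 medians are below 0.

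For the 5 proteases detected in all 3 arrays of a group, which leaves out Mmp7, the genes most like each were found by the root mean square difference of normalized values over the 6 arrays, each gene centred on its own mean, among 61 candidates. For Mmp1a they were Vtn (0.851 log2 units) and Cxcl3 (0.884), for Mmp2 Rac1 (0.514) and Ctgf (0.545), and for Mmp9 Ctgf (0.761) and Il6st (0.911). Ctsk was closest to Col5a2 (0.331) and Itgav (0.344), and Ctsg to the normalizing gene Egfr (0.504) and Plat (0.538). Values at the cutoff are nearly alike in all arrays of a group, so genes detected in the same group only are close by construction. Where a gene detected in 1 group only is set beside a gene measured in both, as Ctsk beside Itgav or Ctsg beside Egfr, the distance moves with the cutoff. Among the pairs above, Ctsk and Col5a2 were both measured in all 6 arrays. Col5a2, a fibrillar collagen V chain, had a log2 fold change of 2.17 beside 2.29 for Ctsk.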

How the data were processed

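CT values of 3 control and 3 DS samples of scratched mouse fibroblasts were used, 1 array each. The authors exported CT with the instrument software and deposited it per well, without normalization or cutoff. The authors also deposited, for each gene, a ratio to Hsp90ab1, Ccl7 and Egfr, averaged by group, in 2 columns that hold no replicate values. The ratio computed here from CT with a geometric mean of the normalizing CT differed from it by at most 0.00242%, and with the arithmetic mean, which was used here, by at most 5.16%. Undetermined wells and any CT past 36 were given the value 36, and each gene was taken relative to the mean of the 3 normalizing CT of its sample, with the sign turned so that more template is higher (−ΔCT, log2 scale). Genes detected in 1 or more samples, 64 in all, entered a limma 3.58.1 fit (lmFit, eBayes) in R 4.3.3. Its p are two-sided, with Benjamini-Hochberg adjustment over those genes, and a gene was called where this did not exceed 0.05. Ccl7 and Egfr, as wound healing genes, are among the 64. The detected normalizing and housekeeping genes were also compared in a fit of their own, on CT. The smallest two-sided exact permutation p with 3 against 3 is 0.1. Figures were drawn with matplotlib 3.10.9 in Python 3.11.15.

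The members and lists were chosen with earlier results of these data known. Named genes are the 8 members, the members of the neighbouring lists that passed or end their range, the marker lists, the reference wells, and for each member detected in all 3 samples of a group the 2 genes of closest pattern. Genes of the lists that were not tested or called, and Rac1 as named for replicate 3, were chosen after their values were seen. Alternatives were other normalizing genes or none, a geometric mean, cutoffs of 35, 40 and the earliest genomic DNA control, no cutoff with undetermined wells set to cycle 45, other filters, the methods' test, robust and trended eBayes, a replicate block, and each sample left out in turn. Arrays have no sequencing depth, and their number limits the precision. The median SD over the 17 assays measured in all 6 was 0.405 cycles in control and 0.607 in DS. The in vivo experiments and the study's separate RNA quality run were not analysed here, and a few genes are counted in the totals without being reported singly.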

Additional observations from a re-analysis of the deposited data

Results flagged for a closer look

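The genomic DNA control, which no protease comparison uses as a gene, gave a mean CT of 33.6 in the DS arrays and no CT in the control arrays. The 3 reverse transcription control wells differed from each other and between the groups. Well H07 gave no CT in control and an earliest CT of 28.95 in DS. Well H08 gave an earliest CT of 21.68 in control and of 39.69 in DS, where 2 of 3 arrays gave any. Well H09 gave a CT of 38.03 in 1 control array and an earliest CT of 31.55 in DS.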

How the results depend on the processing

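Of 22 alternatives for Mmp1a none turned its direction. Detection in control only meant that no alternative other than the normalizing genes could turn it. The methods' test, as rerun here, ended its call, unadjusted or adjusted. Array genes called higher and lower numbered 46 and 13, and proteases 4 and 1. With the 5 housekeeping genes as normalizers these were 17 and 39, and 0 and 4; with Actb and Gapdh 10 and 52, and 0 and 6. The log2 fold changes that turned were, in that order of normalizers, −6.42 and −10.68 for Ctsg, −5.33 and −9.60 for Ctsk, −1.32 and −5.59 for Mmp2, −7.13 and −11.40 for Mmp7, and −0.22 and −4.48 for Mmp9. Both sets include genes that were not detected in control arrays and were set to the cutoff there. The cause of the turns was not tested. With only genes detected in all 6 samples, where fewer genes are tested, the array counts were 8 and 6 and the protease counts 1 and 0. The methods' test, as rerun here, called 1 protease higher and 0 lower, unadjusted or after Benjamini-Hochberg adjustment, which gave 27 higher array genes. Leaving out 1 sample gave 44 to 46 higher and 13 to 13 lower array genes, and 3 to 4 higher and 1 to 1 lower proteases, Ctsg being lost without any one control sample. Correlations of same-numbered deviations were 0.0760, −0.00339 and −0.237 over 14 genes. They showed no pairing by replicate number, but so few genes cannot exclude it. A replicate block gave 45 and 13 array genes and 4 and 1 proteases. Of the tested single-gene values of the 6 proteases, 106 kept direction and side of the threshold, 12 lost the call, 3 gained it (Mmp7) and 10 turned. Detection limits what the arrays show: a gene near the cutoff moves with it, and Timp1 has no value at or under it.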

Other observations

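CT values were recorded to 2 decimals, and 23 of the 300 recorded values (7.67%) were whole numbers. The median count of the 100 possible endings was 2, and the 2 endings next above a whole number occurred 11 times each. Whole values numbered 0, 3 and 5 in control replicates 1, 2 and 3 and 1, 7 and 7 in DS replicates 1, 2 and 3. None of the 25 CT values of the proteases and Timp1 was whole.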
